A study of Mus musculus with 6 samples.

Results

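The 33 genes described here mark the 2 cell layers of blood vessels: 24 are expressed by endothelial cells, which line the vessel, and 9 by mural cells, the pericytes and smooth muscle cells that wrap it. They were taken by symbol from the deposited counts of 24062 genes, where all 33 were listed, and all 33 passed the filter on low counts that left 15652 genes for testing. The rule for the symbols uses no measured value, though the list was drawn up with earlier results of these data known. The comparison asked how these genes differed between nerve tissue of mice that lack Nf1 in the Schwann cell lineage and tissue of mice that also lack Runx1 and Runx3 there, and whether the endothelial and the mural genes differed alike.

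Both groups carry 2 floxed alleles of Nf1, the gene of the Ras GTPase-activating protein neurofibromin, and the DhhCre transgene, and both are on the C57BL/6-I129 background. The Nf1 knockout group is Nf1fl/fl;DhhCre, with tissue labelled as dorsal root ganglion (DRG), 3 libraries. The double knockout group is Runx1fl/fl;Runx3fl/fl;Nf1fl/fl;DhhCre, with tissue labelled as neurofibroma, 3 libraries, and its genotype label leaves out Nf1, which the extraction protocol includes. The protocol names the tissue of both groups as DRG/tumors. Tissue label and genotype change together, so their parts in any difference between the groups cannot be told apart. Cre under the Dhh promoter acts in Schwann cell precursors and their progeny. By design, endothelial and mural cells keep intact Nf1, Runx1 and Runx3, which was not measured here. There is no group with intact Nf1, and age was not given in the sources used here. Each library has its own number in its title, but the labels do not say whether these numbers are separate animals, so p-values measure the spread between these libraries.

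Endothelial cells seal the vessel with VE-cadherin and claudin junctions, read VEGF and angiopoietin through receptor tyrosine kinases, and owe their identity to ETS and SoxF transcription factors. Vessels inside nerve form a blood-nerve barrier, with transporters and few fenestrae, whereas vessels of DRG are leakier. Pericytes are recruited through the PDGF receptor beta and sit in the capillary basement membrane, and smooth muscle cells around arterioles and venules carry a contractile apparatus of actin, myosin and calponin. RNA was taken from whole tissue, so fewer cells of a type and less RNA per cell cannot be told apart.

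The libraries held 12439296 to 16682194 counted reads. Levels are given as CPM, the usual unit of reads per gene relative to library size, after TMM scaling, and 3 reads corresponded to 0.18 to 0.241 CPM before scaling. In CPM, Runx1 stood at 131, 141 and 172 (Nf1 knockout) against 84, 78.9 and 185 (labelled double knockout), with the highest of all 6 values in double knockout library 3. Runx3 stood at 19.9, 15.1 and 29.9 against 13.5, 10.3 and 12.1. Double knockout library 3 was thus not lower in Runx1. By design the deletion is confined to the Schwann cell lineage and the reads come from whole tissue, so these values cannot settle the label. Either this library or double knockout library 2 came from another sequencing run than the rest. Which of them it was is open, since titles and file headers disagreed for 4 libraries of unchanged genotype. The run held no Nf1 knockout library and gives no value within it. Skeletal muscle transcripts were high in 2 libraries, with a summed level of 12 markers of 3743 CPM in Nf1 knockout library 2 and 14784 CPM in double knockout library 2 against 9.81 to 99 CPM in the other 4. Markers of other cell types also differed between the groups, and the group labelled as neurofibroma had the higher sensory neuron levels, not that labelled as DRG. All 12 sensory neuron markers were higher in the double knockout group (summed 4593 to 10439 CPM against 879 to 1936), 8 of 10 macrophage markers were lower (172 to 403 against 778 to 1390 CPM) and 7 of 9 fibroblast markers were lower (3666 to 6133 against 10803 to 11475 CPM).

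Of the 24 endothelial genes, 2 were higher in the double knockout group at an adjusted p below 0.05 (limma-voom, Benjamini-Hochberg over all 15652 genes) and none was lower, and Mfsd2a was the 1 gene that also changed by more than 2-fold. Of the 9 mural genes, Rgs5 was higher and Cspg4 and Mcam were lower, each by less than 2-fold. Over all tested genes 11.1% were higher and 8.22% lower by the same rule, and 8.03% were higher and 5.36% lower when a change of more than 2-fold was also asked for. The endothelial share of 2 in 24 was thus close to the background. Where other rules are named below, the shares of all tested genes in either direction were 20.3% called in edgeR, 29.2% in DESeq2 and 25% with sample quality weights in limma-voom, and 35.2% had an unadjusted p below 0.05. The median log2 fold change was 0.48 over the endothelial genes and -0.39 over the mural genes, against 0.02 over all tested genes. These medians are descriptions without a test.

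**Figure D1:**
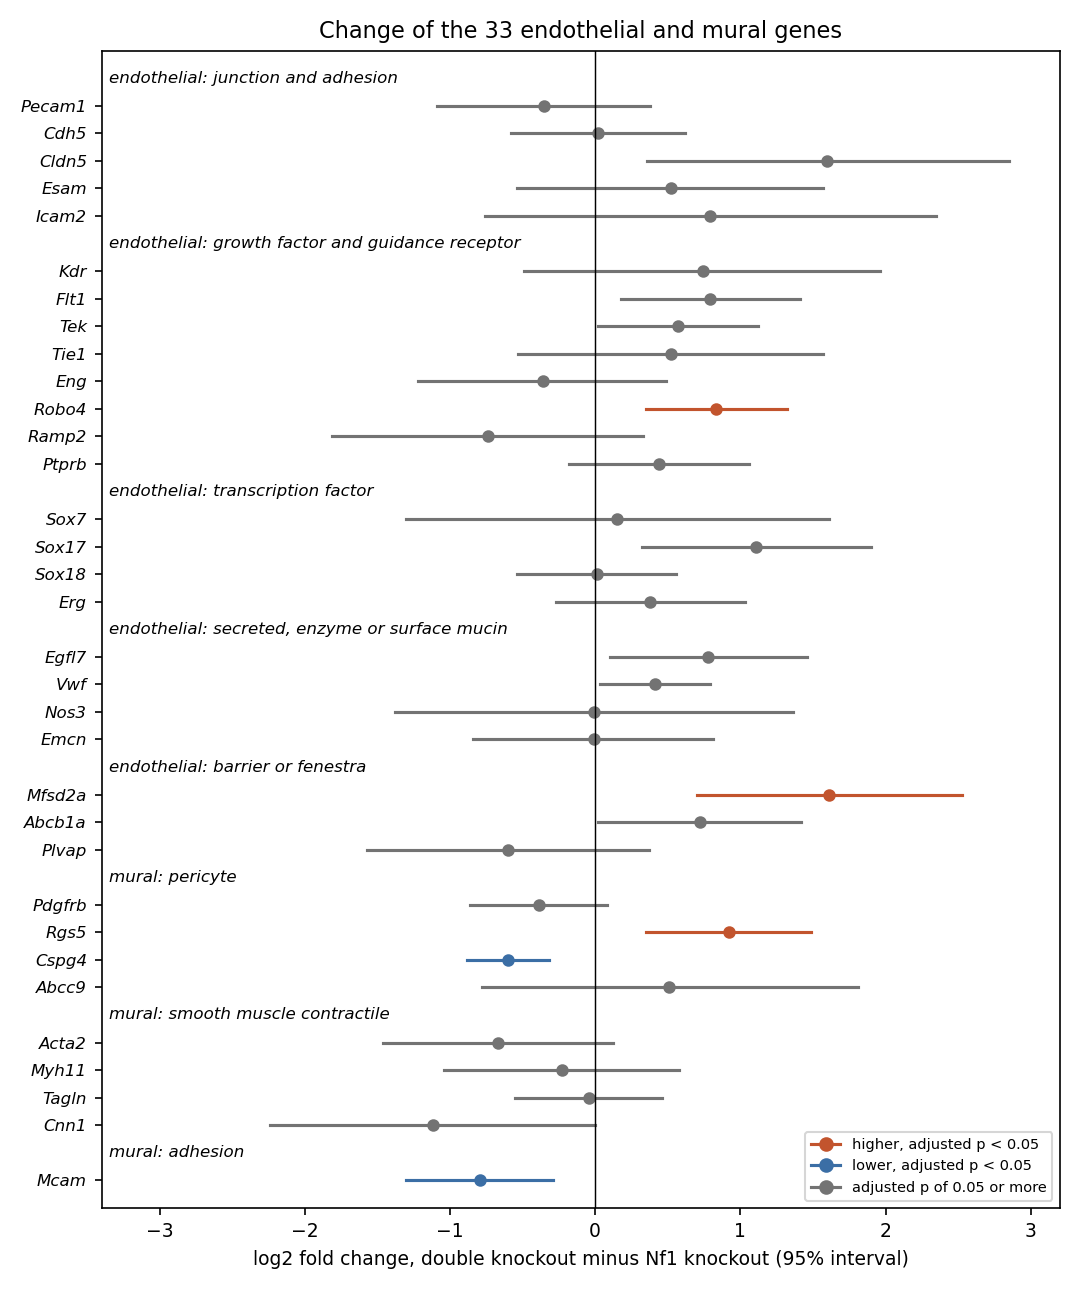
Log2 fold change of each of the 33 genes, double knockout minus Nf1 knockout, with its 95% interval from limma-voom, by role. The 18 endothelial points above 0 include Robo4 and Mfsd2a, in red, and 7 of the 9 mural points lie below 0, with Cspg4 and Mcam in blue.

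The DNA before the start site is shown for the 5 genes that passed the test, with the core letters of RUNX proteins marked. The design removes Runx1 and Runx3 in the Schwann cell lineage, and the reads come from whole tissue. Whether RUNX binding was lost at these genes was not tested. RefSeq windows (GRCm38.p6) were at hand for 18 of the 33 genes, as 22 windows. The 250 bases before the start were searched on both strands for TGTGG, the core letters bound by RUNX proteins. They are printed 5′ to 3′ along the gene up to the start of the gene in GENCODE M21, in lower case with TGTGG or its reverse complement CCACA in capitals.
Mfsd2a, chr4:122961189-122961438, minus strand: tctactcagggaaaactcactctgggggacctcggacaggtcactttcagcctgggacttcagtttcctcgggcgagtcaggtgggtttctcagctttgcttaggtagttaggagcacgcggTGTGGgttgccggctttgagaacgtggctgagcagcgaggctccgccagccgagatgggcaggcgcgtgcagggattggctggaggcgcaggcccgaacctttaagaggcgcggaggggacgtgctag
Robo4, chr9:37401722-37401896, plus strand: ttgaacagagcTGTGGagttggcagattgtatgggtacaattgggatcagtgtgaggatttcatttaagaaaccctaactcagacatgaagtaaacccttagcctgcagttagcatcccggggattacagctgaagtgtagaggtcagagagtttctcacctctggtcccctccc
Rgs5, chr1:169655251-169655500, plus strand: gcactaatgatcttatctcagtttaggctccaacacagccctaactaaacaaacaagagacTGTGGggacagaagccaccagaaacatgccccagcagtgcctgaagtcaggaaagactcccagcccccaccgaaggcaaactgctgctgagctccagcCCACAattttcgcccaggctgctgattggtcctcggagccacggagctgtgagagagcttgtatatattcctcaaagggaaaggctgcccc
Cspg4, chr9:56864854-56865032, plus strand: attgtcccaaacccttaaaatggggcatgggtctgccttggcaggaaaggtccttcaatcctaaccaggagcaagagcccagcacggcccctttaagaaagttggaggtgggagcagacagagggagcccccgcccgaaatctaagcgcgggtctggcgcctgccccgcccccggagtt
Mcam, chr9:44134408-44134468, plus strand: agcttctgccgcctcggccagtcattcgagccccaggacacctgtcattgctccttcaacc

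The letters TGTGG were in the windows of Mfsd2a, Robo4 and Rgs5, which were higher, and not in those of Cspg4 and Mcam, which were lower. Counted from the RefSeq start, which for Robo4, Cspg4 and Mcam lies inside the GENCODE gene so that part of the searched window is not printed, the match began 128 bases before the start of Mfsd2a and 239 bases before that of Robo4, and Rgs5 held 2 matches, of which 1 was on the opposite strand. Such matches are common. They were in 12 of the 22 windows of the 33 genes and in 49.3% of all 32851 RefSeq windows of the same length, and the longer TGTGGT was in none of the 22 and in 14% of all. GGAAG, the core letters of ETS factors such as ERG, was in 13 of the 22 windows and in 64.1% of all windows, and the longer AGGAAG in 9 of the 22 and in 29.5% of all. CArG, the motif of serum response factor in contractile genes, was searched only as CCWWWWWWGG, where W is A or T. Boxes with a mismatch were thus not counted. This strict form had no match in the 22 windows and was in 1.47% of all. These are matches of letters, and binding was not measured here.

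Among the 5 junction and adhesion genes of endothelium, none passed the test in limma-voom or edgeR, 1 passed in DESeq2 (Cldn5) and 1 had an unadjusted p below 0.05, against 29.2% and 35.2% of all tested genes. Cdh5, the VE-cadherin of adherens junctions, had the highest level per length of this group, 16.9 CPM per kilobase of exon over all libraries. It stood at 63.5, 88.8 and 57.8 CPM in Nf1 knockout libraries 1 to 3 and at 78.6, 88.2 and 50.2 CPM in double knockout libraries 1 to 3. The ranges overlapped almost fully, and the log2 fold change was 0.02 (95% interval -0.58 to 0.62). Cldn5, the claudin of endothelial tight junctions, was at 0.971, 0.357 and 0.834 CPM against 2.31, 2.22 and 1.72 CPM. Its groups did not overlap, and its log2 fold change of 1.60 (95% interval 0.36 to 2.85) had an adjusted p of 0.0749 in limma-voom, from 6 to 29 reads a library. Pecam1, a homotypic adhesion molecule also carried by platelets and leukocytes, was at 32.4, 42.1 and 42 CPM against 31.8, 47.3 and 19.2 CPM, with an interval of -1.09 to 0.38. Esam, a junctional immunoglobulin protein, had an interval of -0.54 to 1.57, and Icam2, a leukocyte ligand with the lowest level per length of the group (0.849 CPM per kilobase), one of -0.76 to 2.35.

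Of the 8 growth factor and guidance receptors, Robo4 passed the test. Robo4, an endothelial receptor of the Roundabout family that stabilizes vessels, lies on the plus strand of chromosome 9 (GRCm38) from 37401897 to 37415115. It was at 8.39, 8.82 and 8.47 CPM in Nf1 knockout libraries 1 to 3 and at 18.6, 14.1 and 13.8 CPM in double knockout libraries 1 to 3. The Nf1 knockout values lay within 0.425 CPM of each other, and every double knockout value was above them. The change was 1.81-fold by the means, 8.56 ± 0.227 against 15.5 ± 2.73 CPM (SD, n = 3 each), and the log2 fold change of 0.83 ± 0.21 (SE) had an adjusted p of 0.0327 in limma-voom. Groups did not overlap in this direction for 21.8% of all tested genes and for 7 of the 24 endothelial genes. Without double knockout library 3 the adjusted p of Robo4 was 0.0472, and without each of the other libraries in turn it was 0.0523 to 0.103, with log2 fold changes of 0.73 to 0.92 over the 6 fits. It also missed the threshold without both muscle libraries, a fit chosen after seeing the data (0.92, adjusted p = 0.0938, limma-voom), and when scaled by library size only (0.75, adjusted p = 0.0507, limma-voom).

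The VEGF receptors Kdr and Flt1 did not pass in limma-voom or edgeR, and Flt1 passed in DESeq2 and with sample quality weights. Flt1, which binds VEGF-A and also acts as its decoy, was at 25.7, 40.5 and 33.5 CPM against 58.3, 76.1 and 42.4 CPM, and its groups did not overlap (log2 fold change 0.79, 95% interval 0.18 to 1.41, adjusted p = 0.0739, limma-voom). Kdr, the main signalling receptor of VEGF-A, was at 13.7, 11.8 and 23.3 CPM against 32.4, 47.1 and 12.2 CPM, so that double knockout library 3 fell among the Nf1 knockout values (interval -0.49 to 1.96). Its log2 fold change of 0.74 was 1.33 without that library, 0.32 without double knockout library 2 and 0.12 without both muscle libraries. Tek, the angiopoietin receptor TIE2, had an interval of 0.02 to 1.12 and an adjusted p of 0.131 in limma-voom, and passed with sample quality weights. Ptprb, the phosphatase VE-PTP that acts on TIE2 and VE-cadherin, had the highest level per length of the receptors, 14.5 CPM per kilobase, with 137, 196 and 150 CPM against 230, 298 and 149 CPM (interval -0.18 to 1.06). Tie1, the partner of TIE2, had the lowest, 1.06 CPM per kilobase, and an interval of -0.53 to 1.57. Eng, the TGF-beta co-receptor endoglin, had an interval of -1.22 to 0.49, and Ramp2, the partner of the adrenomedullin receptor, one of -1.81 to 0.33. Ramp2 shares exon bases with Vps25 on the same strand, so its reads cannot be fully told apart.

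All 8 of these receptors had their lowest double knockout value in library 3. Over the endothelial genes this library was the lowest of the 3 for 18 of 24, over the mural genes for 6 of 9, and over all tested genes for 28.1%. Without it, Kdr, Flt1, Tek and Robo4 passed the test among the 24 endothelial genes, with adjusted p of 0.0463, 0.0395, 0.0384 and 0.0472 in limma-voom. In that fit 12.7% of all tested genes were called. Mfsd2a did not pass in it (adjusted p = 0.0634, limma-voom), and the endothelial median log2 fold change was 0.72. The same library had the highest sensory neuron level, 10439 CPM over 12 markers, and the part of this in the lower vessel values was not tested.

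None of the 4 transcription factors passed in limma-voom or edgeR, and 1 (Sox17) passed in DESeq2 and had an unadjusted p below 0.05, against 29.2% and 35.2% of all tested genes. Sox17, a SoxF factor of arterial endothelium, was at 3.19, 8.46 and 5.64 CPM against 11.2, 11.9 and 12.2 CPM. The double knockout values were close together and above the others, with a log2 fold change of 1.11 (95% interval 0.32 to 1.90, adjusted p = 0.0577, limma-voom). Sox18, another SoxF factor and the highest per length of this group (4.67 CPM per kilobase), was at 6.38, 7.74 and 8.34 CPM against 7.57, 8.72 and 6.6 CPM, with an interval of -0.54 to 0.56. Sox7, the third SoxF factor and the lowest (1.82 CPM per kilobase), spread from 2.18 to 11.5 CPM within the double knockout group alone (interval -1.30 to 1.61). Erg, an ETS factor of endothelial identity, had an interval of -0.27 to 1.03.

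None of the 4 secreted, enzyme and surface mucin genes passed in limma-voom, edgeR or DESeq2, and 2 (Egfl7 and Vwf) had an unadjusted p below 0.05, against 35.2% of all tested genes. Vwf, the von Willebrand factor that tethers platelets, was at 30.5, 38.8 and 40.4 CPM against 48.3, 44.4 and 52.4 CPM without overlap (log2 fold change 0.41, 95% interval 0.03 to 0.79, adjusted p = 0.117, limma-voom). Egfl7, a secreted endothelial matrix protein, was at 4.65, 8.04 and 6.41 CPM against 10, 14 and 9.18 CPM (interval 0.10 to 1.46, adjusted p = 0.102, limma-voom), and shares exon bases with Agpat2 on the opposite strand. Egfl7 passed with sample quality weights, which called 25% of all tested genes. Emcn, the capillary and venous sialomucin endomucin, was the highest per length (3.70 CPM per kilobase) and had an interval of -0.84 to 0.81. Nos3, the endothelial nitric oxide synthase, was the lowest (1.22 CPM per kilobase), with an interval of -1.38 to 1.36.

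Mfsd2a and Cldn5 had the largest fitted changes of the 33 genes in limma-voom, 1.61 and 1.60 on the log2 scale, and their order changed with the tool and the library left out. Mfsd2a encodes the lysophosphatidylcholine transporter that restrains transcytosis in barrier endothelium, and lies on chromosome 4, minus strand, at positions 122946850 to 122961188. It was at 11.2, 20.8 and 7.06 CPM in Nf1 knockout libraries 1 to 3 and at 50, 28.3 and 34.7 CPM in double knockout libraries 1 to 3. Every double knockout library was above every Nf1 knockout library, and the lowest of the former and the highest of the latter were the 2 libraries with muscle transcripts. The means of 13 ± 7.04 and 37.7 ± 11.2 CPM (SD, n = 3 each) differed 2.89-fold, and the log2 fold change of 1.61 ± 0.39 (SE) had an adjusted p of 0.0311 in limma-voom. Without both muscle libraries, a fit chosen after seeing the data, it was 2.23 (adjusted p = 0.0195, limma-voom). Leaving out single libraries gave 1.28 to 2.09, with an adjusted p of 0.0134 without Nf1 knockout library 2 and of 0.0523 to 0.102 without each of the others. All 12 neuronal markers were also higher in the double knockout group. Within that group Mfsd2a was highest in library 1 and the summed neuronal level in library 3. The part of neuronal transcripts in this result was not tested.

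Abcb1a, the P-glycoprotein efflux pump of barrier endothelium, was at 25.7, 39 and 16.3 CPM against 46.6, 38 and 41.6 CPM. Double knockout library 2 and Nf1 knockout library 2 crossed by 1.03 CPM, and the log2 fold change was 0.72 (95% interval 0.02 to 1.42, adjusted p = 0.134, limma-voom). Without Nf1 knockout library 2 it passed, at 1.08 (adjusted p = 0.0242, limma-voom). Reads of its near-identical neighbour Abcb1b could have been split between both. Plvap, the diaphragm protein of fenestrae and the opposite pole of a sealed vessel, was at 1.87, 3.28 and 3.72 CPM against 2.07, 1.73 and 1.85 CPM, with an interval of -1.57 to 0.37. It had the lowest level per length of this group, 1.22 CPM per kilobase, and Mfsd2a the highest, 11.3.

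Of the 4 pericyte genes, Rgs5 was higher, Cspg4 was lower, and Pdgfrb and Abcc9 did not pass the test. Rgs5, a regulator of G-protein signalling and a standard pericyte marker, lies on the plus strand of chromosome 1 from 169655501 to 169695813 and had the highest level per length of the pericyte genes, 28.6 CPM per kilobase. It was at 72.5, 108 and 85.4 CPM in Nf1 knockout libraries 1 to 3 and at 146, 233 and 135 CPM in double knockout libraries 1 to 3. Its groups did not overlap. The means of 88.6 ± 18 and 171 ± 53.6 CPM (SD, n = 3 each) differed 1.93-fold (log2 fold change 0.92, SE 0.24, adjusted p = 0.0396, limma-voom).

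Cspg4, the NG2 proteoglycan of pericytes that glial precursors also carry, lies on the plus strand of chromosome 9 from 56865033 to 56899870. It was at 152, 138 and 151 CPM against 106, 90.1 and 95.4 CPM, 1.51-fold lower in the double knockout group (log2 fold change -0.60, SE 0.12, adjusted p = 0.0188, limma-voom). The highest double knockout value was 32.2 CPM below the lowest Nf1 knockout value, a gap wider than the spread within either group, 14.1 and 15.4 CPM. Groups did not overlap in this direction for 20.5% of all tested genes and for 3 of the 9 mural genes. Cspg4 had the lowest level per length of the pericyte genes, 10.2 CPM per kilobase.

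Pdgfrb, the PDGF receptor that recruits pericytes and is also high in fibroblasts, was at 68, 81.8 and 49.4 CPM against 49.6, 51.7 and 47.9 CPM. The double knockout values were tight and sat at the low end of the Nf1 knockout values (interval -0.86 to 0.08). Abcc9, the sulfonylurea receptor subunit of pericyte potassium channels, which striated muscle also makes, was at 53.3, 98.7 and 61.6 CPM against 89.6, 235 and 47.3 CPM. Its highest value in each group was in the library with muscle transcripts, and its log2 fold change of 0.51 (interval -0.78 to 1.81) was 0.18 without both of these.

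None of the 4 contractile genes of smooth muscle passed in limma-voom, edgeR or DESeq2, and 1 (Cnn1) had an unadjusted p below 0.05, against 35.2% of all tested genes. Acta2, smooth muscle actin, had the highest level per length, 18.7 CPM per kilobase, and was at 60.3, 34.7 and 54.3 CPM against 38, 40 and 18.9 CPM (interval -1.46 to 0.12). Its reads may be shared with other actin genes. Cnn1, calponin, had the lowest, 0.859 CPM per kilobase, and was at 4.72, 2.74 and 2.31 CPM against 1.99, 1.15 and 1.19 CPM without overlap (log2 fold change -1.12, 95% interval -2.24 to 0.00, adjusted p = 0.141, limma-voom). Myh11, the smooth muscle myosin heavy chain, had an interval of -1.04 to 0.58 and Tagln, the actin-binding protein transgelin, one of -0.55 to 0.46. All 4 fitted changes were below 0, from -1.12 to -0.04.

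Mcam, the adhesion molecule CD146 of pericytes, smooth muscle and some endothelium, lies on the plus strand of chromosome 9 from 44134469 to 44142727 and had the highest level per length of the 33 genes, 39.5 CPM per kilobase. It was at 190, 123 and 194 CPM in Nf1 knockout libraries 1 to 3 and at 106, 79.4 and 103 CPM in double knockout libraries 1 to 3. Each double knockout value was lower, and in both groups library 2 was the lowest. The means of 169 ± 39.5 and 96 ± 14.5 CPM (SD, n = 3 each) differed 1.76-fold (log2 fold change -0.79, SE 0.21, adjusted p = 0.0425, limma-voom).

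The 3 mural calls depended on single libraries. The adjusted p of Rgs5 was 0.0420 and 0.0436 without Nf1 knockout library 2 and double knockout library 3, and 0.0747 to 0.149 without each of the others (limma-voom). That of Cspg4 was 0.0259 to 0.0423 in 3 of the 6 fits, without Nf1 knockout library 2 or double knockout library 1 or 3, and 0.0606 to 0.0775 in the other fits. That of Mcam was 0.0115 without Nf1 knockout library 2 and 0.0730 to 0.136 in the other fits. Without both muscle libraries, Rgs5 and Mcam passed (adjusted p 0.0324 and 0.0232, limma-voom) and Cspg4 did not (0.0636). The log2 fold changes of all 3 kept their sign in each of these fits. Fibroblast markers, with a median log2 fold change of -1.09, were lower in the same libraries as Cspg4 and Mcam, and their part in these values was not tested.

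**Figure D2:**
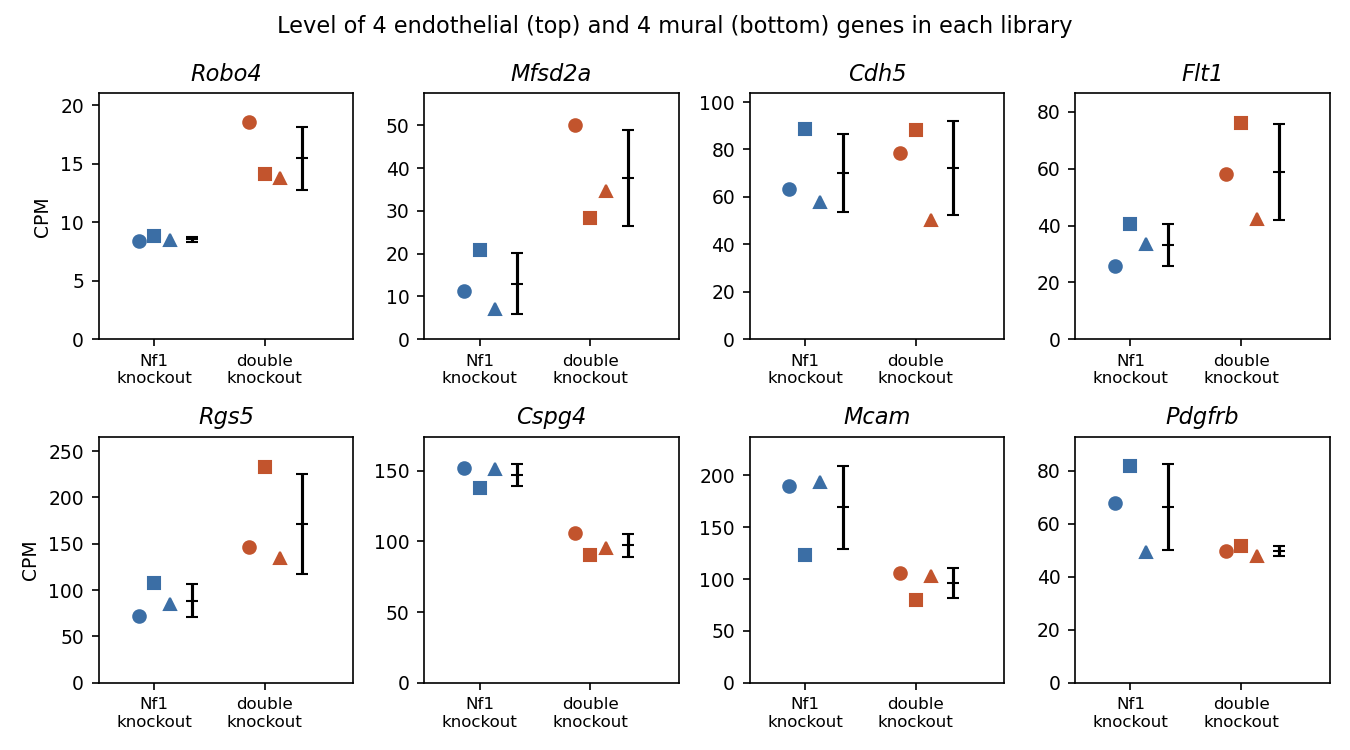
Level in CPM (linear axis from 0) of 4 endothelial and 4 mural genes in each library, circle, square and triangle for libraries 1 to 3, with the group mean and SD in black. Robo4, Mfsd2a, Flt1 and Rgs5 were higher in every double knockout library, Cspg4 and Mcam lower in every one, and Cdh5 and Pdgfrb overlapped.

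The endothelial and mural levels were then set against each other within each library, as the mean log2 CPM over the genes of each kind. The endothelial mean was 3.17, 3.66 and 3.45 in Nf1 knockout libraries 1 to 3 and 3.99, 4.14 and 3.46 in double knockout libraries 1 to 3. Double knockout libraries 1 and 2 were above all others and library 3 lay among the Nf1 knockout values. The mural mean was 5.60, 5.53 and 5.47 against 5.38, 5.52 and 4.92, and library 3 was the lowest. The roles within it differed. Double knockout minus Nf1 knockout was 0.12 for the 4 pericyte genes, -0.51 for the 4 contractile genes and -0.80 for Mcam. Over the 17 tested mural genes outside these, it was -0.06. Subtracting the mural from the endothelial mean gave -2.44, -1.87 and -2.03 against -1.39, -1.39 and -1.46. On this scale the double knockout libraries lay within 0.07 of each other and above all Nf1 knockout libraries, with group means of -1.41 ± 0.04 and -2.11 ± 0.29 (SD, n = 3 each), a difference of 0.70 that does not depend on library scaling. Leaving out single libraries gave 0.54 to 0.82, and leaving out both muscle libraries gave 0.80. With Mcam, which some endothelium also carries, counted as endothelial, the difference was 0.58. It is a description of these 33 genes, with no test.

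**Figure D3:**
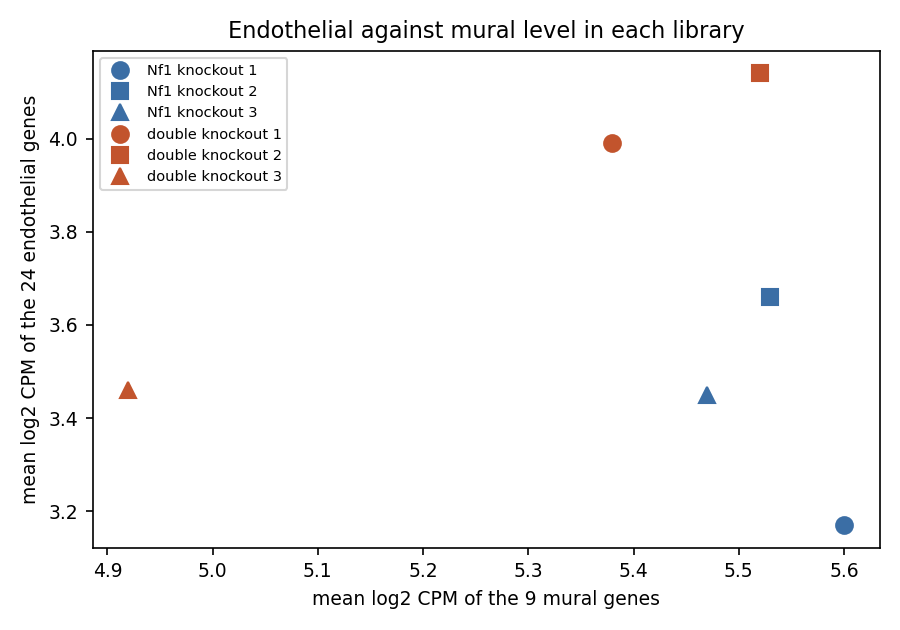
Mean log2 CPM of the 24 endothelial genes (vertical) against that of the 9 mural genes (horizontal), 1 point per library. Double knockout library 3 was lowest on the mural axis at 4.92, and double knockout libraries 1 and 2 were highest on the endothelial axis at 3.99 and 4.14.

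Further genes of vessels gave a wider view. Of 19 tested endothelial genes outside the 24, 4 were higher and 1 lower (limma-voom), where 11.1% of all tested genes were higher and 8.22% lower, and the median log2 fold change was 0.69. DESeq2 called 8 of them and edgeR 4, where these tools called 29.2% and 20.3% of all tested genes. Tspan18, a tetraspanin of endothelial calcium signalling, was at 45.4, 39.1 and 39.6 CPM against 126, 226 and 112 CPM (log2 fold change 1.83, SE 0.28, adjusted p = 0.0111, limma-voom). Ecscr, an endothelial surface protein of migration and survival, was at 7.07, 11 and 16.5 CPM against 31.7, 35.9 and 40 CPM (1.70, SE 0.29, adjusted p = 0.0128, limma-voom). Bmx, a TEC family kinase of arterial endothelium, was higher by 1.17 (adjusted p = 0.0392, limma-voom), as was She by 0.89, and Tm4sf1 was the gene that was lower, by -1.13. She and Tm4sf1 were named after their values were seen. Ecscr passed whichever of the 6 libraries was left out. Tspan18 failed without Nf1 knockout library 1 (adjusted p = 0.0539, limma-voom). Tm4sf1 passed in 4 of the 6, and failed without Nf1 knockout library 1 (0.0608) or 3 (0.0502). Bmx passed only without Nf1 knockout library 2 (0.0338), as did She (0.0156). She also missed the threshold in edgeR, when scaled by library size only and with every gene above a count of 0.

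Of 11 tested genes of barrier endothelium outside the 24, 3 were higher and none lower in limma-voom, against 11.1% and 8.22% of all tested genes. Slco1a4, an organic anion transporter, was at 12, 12.5 and 7.89 CPM against 38.3, 38.9 and 53.3 CPM (log2 fold change 2.03, SE 0.25, adjusted p = 0.00805, limma-voom), and passed whichever library was left out. Slco1c1, the thyroxine transporter, was at 0.624, 0.655 and 0.449 CPM against 2.55, 2.55 and 6.47 CPM (2.60, SE 0.68, adjusted p = 0.0379, limma-voom), and passed in 1 of 6 fits without a single library, the one without double knockout library 1 (0.0456), and not without both muscle libraries (0.0797). Slc7a5, the large neutral amino acid transporter that neurons and glia also express, was at 19.5, 37.3 and 23.3 CPM against 61.9, 45.3 and 68.1 CPM (1.16, SE 0.27, adjusted p = 0.0278, limma-voom), and passed in 2 of them, without Nf1 knockout library 2 (0.0106) or double knockout library 2 (0.0420). The remaining 8, among them the glucose transporter Slc2a1, the tight junction genes Ocln and Tjp1 and the basigin gene Bsg, did not pass in limma-voom, and 1 of them, Itm2a, passed in DESeq2 and with sample quality weights, in the other direction. Itm2a, a transmembrane protein, was at 88.2, 80.5 and 69.9 CPM against 62.2, 48 and 60.1 CPM, lower without overlap (log2 fold change -0.48, 95% interval -0.86 to -0.11, adjusted p = 0.0725, limma-voom). Abcg2, also among the 8, passed as higher in the limma-voom fit without Nf1 knockout library 2, where 18.9% of all tested genes were called. Over all libraries it was at 42.6, 60.6 and 38.6 CPM against 58.7, 53.6 and 60.9 CPM (log2 fold change 0.31, 95% interval -0.14 to 0.76). The genes named beyond the 3 called were named after their values were seen. Slc2a1, Ocln, Tjp1 and Bsg had log2 fold changes of -0.13, 0.41, -0.14 and 0.25. Where Slco1a4 was highest, in double knockout library 3, the neuron markers were highest too, and their part in these values was not tested.

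Genes of venules and inflamed endothelium split. Ackr1, the atypical chemokine receptor of venules that red cells also carry, was at 38, 48.4 and 40.9 CPM against 126, 112 and 192 CPM (log2 fold change 1.73, SE 0.23, adjusted p = 0.00931, limma-voom). Like Slco1a4, it was highest in double knockout library 3, where the neuron markers were highest too, and their part in its values was not tested. All 10 listed globin genes were at 0 in every library, so that they say nothing of red cells. Alas2, the heme synthesis enzyme of red cell precursors, was not called and is named here beyond the rule for called genes. It was at 21.2, 24 and 18.3 CPM against 30, 26.1 and 20.6 CPM, which overlapped (95% interval of the log2 fold change -0.22 to 0.73). The leukocyte adhesion gene Icam1 was at 16.8, 22.5 and 29 CPM against 8.21, 4.11 and 3.43 CPM (-2.21, SE 0.39, adjusted p = 0.0139, limma-voom). Vcam1, its partner in leukocyte capture, was at 31.5, 50.8 and 49.7 CPM against 26.1, 16.9 and 20.6 CPM (-1.05, SE 0.26, adjusted p = 0.0319, limma-voom). These 3 were the called genes of 8 tested, 1 higher and 2 lower, against 11.1% and 8.22% of all tested genes. Ackr1 and Icam1 passed whichever library was left out, and Vcam1 in 1 of 6, without Nf1 knockout library 1 (0.0474). Vcam1 also missed the threshold with sample quality weights. Without both muscle libraries Ackr1 passed (0.0174), and Icam1 (-2.10, adjusted p = 0.0513, limma-voom) and Vcam1 (log2 fold change -0.77) did not. Macrophages and fibroblasts also express Icam1 and Vcam1, and markers of both were lower in the same libraries. Their part in these values was not tested.

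Among 8 tested arterial genes, 2 were higher and 1 lower, against 11.1% and 8.22% of all tested genes. Sema3g, an endothelial semaphorin, was higher (3.61, 6.37 and 4.04 CPM against 13.1, 15 and 12.5 CPM, log2 fold change 1.55, adjusted p = 0.0137, limma-voom) together with Bmx, and Efnb2, the arterial ephrin that Schwann cells also make, was lower (114, 128 and 102 CPM against 55.9, 51.8 and 63 CPM, 2.01-fold by the means, adjusted p = 0.0103, limma-voom). Efnb2 passed whichever library was left out, and Sema3g in 4 of 6, not without Nf1 knockout library 1 (0.0611) or 3 (0.0506). Of 22 tested growth factor ligands and partner receptors, 3 were lower and none higher in limma-voom, against 8.22% and 11.1% of all tested genes: Efnb2, the adrenomedullin receptor Calcrl (log2 fold change -1.11, adjusted p = 0.0208, limma-voom) and the BMP receptor Acvrl1 (-0.94, adjusted p = 0.0278, limma-voom). Calcrl failed without Nf1 knockout library 1 (0.0592) or double knockout library 1 (0.0598) or 3 (0.0582). Acvrl1 passed in 1 of 6 fits, without double knockout library 1 (0.0498), and not without both muscle libraries (0.114). Vegfa, the ligand of Kdr and Flt1, named here after its values were seen, was at 47, 32.7 and 45.6 CPM against 92, 136 and 39.6 CPM (95% interval -0.11 to 1.95) and, like Kdr, had its low double knockout value in library 3. It passed in DESeq2 and in the limma-voom fit without that library. Vegfb, a ligand of Flt1 also named after its values were seen, was at 10.3, 14.1 and 15.3 CPM against 25.6, 40.2 and 19.9 CPM without overlap (log2 fold change 1.04, 95% interval 0.33 to 1.76, adjusted p = 0.0517, limma-voom). It passed in edgeR, which called 4 genes of this list and 20.3% of all tested genes, and in DESeq2, which called 6 and 29.2%. Adm, the adrenomedullin that signals through Calcrl and Ramp2, also named after its values were seen, was lower without overlap, at 2.84, 5.9 and 5.39 CPM against 1.67, 0.493 and 2.51 CPM (log2 fold change -1.73, 95% interval -3.21 to -0.25, adjusted p = 0.0963, limma-voom), and passed in DESeq2.

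Of 6 tested lymphatic genes, 1 was lower, against 8.22% of all tested genes: Pdpn, the podoplanin that fibroblasts also carry (23.1, 22 and 17.1 CPM against 7.25, 4.61 and 5.74 CPM, log2 fold change -1.82, adjusted p = 0.0100, limma-voom), whichever library was left out. The list's median was -0.54. Of 17 tested mural genes outside the 9, 1 was higher and 2 lower, against 11.1% and 8.22% of all tested genes. Smtn, the smooth muscle protein smoothelin, was higher (31.3, 31.6 and 33.6 CPM against 77.5, 76.7 and 85 CPM, log2 fold change 1.31, SE 0.13, adjusted p = 0.00598, limma-voom), also whichever library was left out. The aminopeptidase Anpep and the actin-binding caldesmon gene Cald1, both also made by fibroblasts, were lower, by -1.28 and -1.23 (adjusted p = 0.0159 and 0.0100, limma-voom). Anpep failed without Nf1 knockout library 1 (0.0611) or 3 (0.0520) or both muscle libraries (0.0509), and Cald1 without Nf1 knockout library 1 (0.0501). The median of the 17 was -0.02, against -0.39 for the 9 mural genes.

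**Figure D4:**
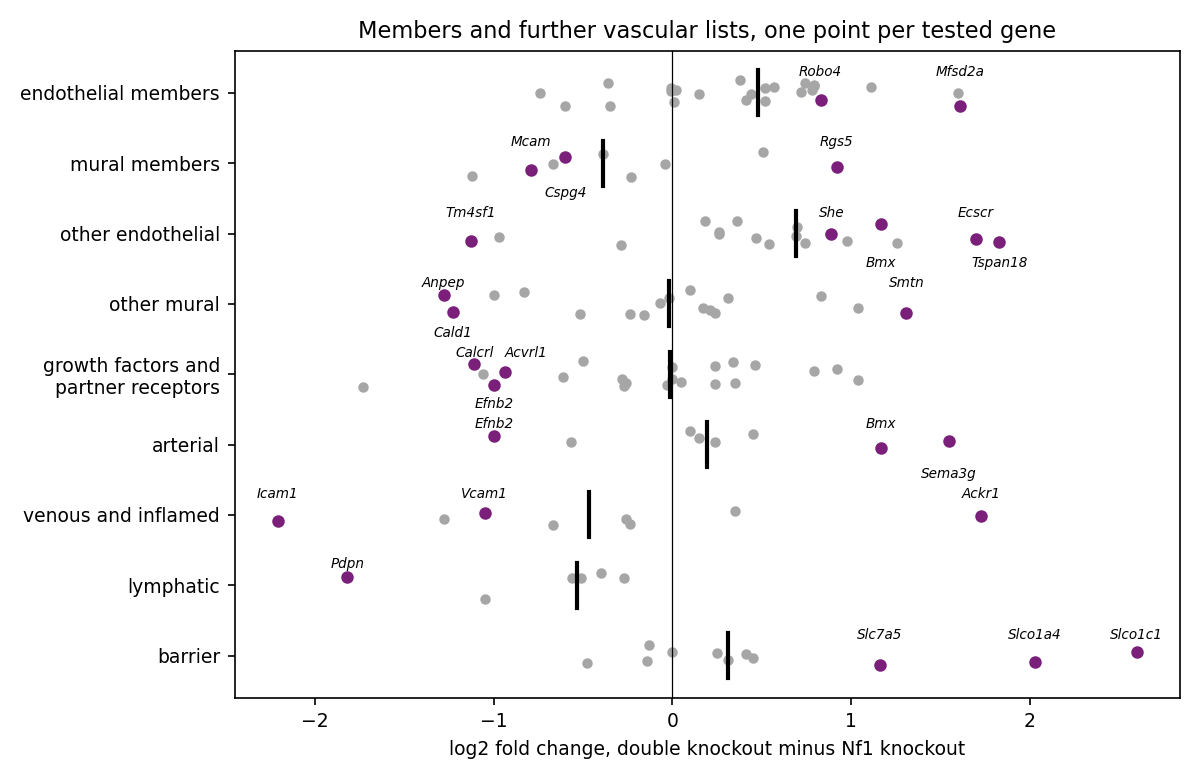
Log2 fold change (double knockout minus Nf1 knockout) of every tested gene of the members and of 7 further vascular lists, 1 point per gene, with the list median as a black bar and genes past an adjusted p of 0.05 in purple with their names. Vertical scatter within a list has no meaning, and Bmx, Efnb2, Dll4, Flt4, Ephb4 and Aplnr stand in 2 lists each.

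Ratios of counts within a library, chosen after the values were seen, are free of the scaling between libraries. Against Cdh5, Mfsd2a was at 0.177, 0.234 and 0.122 in Nf1 knockout libraries 1 to 3 and at 0.637, 0.321 and 0.691 in double knockout libraries 1 to 3. Robo4 was at 0.132, 0.0993 and 0.147 against 0.237, 0.16 and 0.275 on the same scale. Slco1a4 was at 0.189, 0.14 and 0.137 against 0.487, 0.441 and 1.06, and Icam1 at 0.264, 0.253 and 0.502 against 0.104, 0.0466 and 0.0683. In each of these 4 ratios the groups were apart, whereas those of Pecam1 (0.51, 0.474 and 0.727 against 0.405, 0.536 and 0.382) and of the efflux pump gene Abcb1a (0.405, 0.439 and 0.282 against 0.593, 0.431 and 0.828) overlapped. Against Pdgfrb, Rgs5 was at 1.07, 1.32 and 1.73 and at 2.95, 4.51 and 2.82, again apart. The ratios of Cspg4 (1.68 to 3.05 against 1.74 to 2.13) and of Mcam (1.51 to 3.92 against 1.54 to 2.14) to Pdgfrb overlapped. These ratios are given as a description with no test. An exact two-sided permutation test of 3 libraries against 3 cannot give a p below 0.1.

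**Figure D5:**
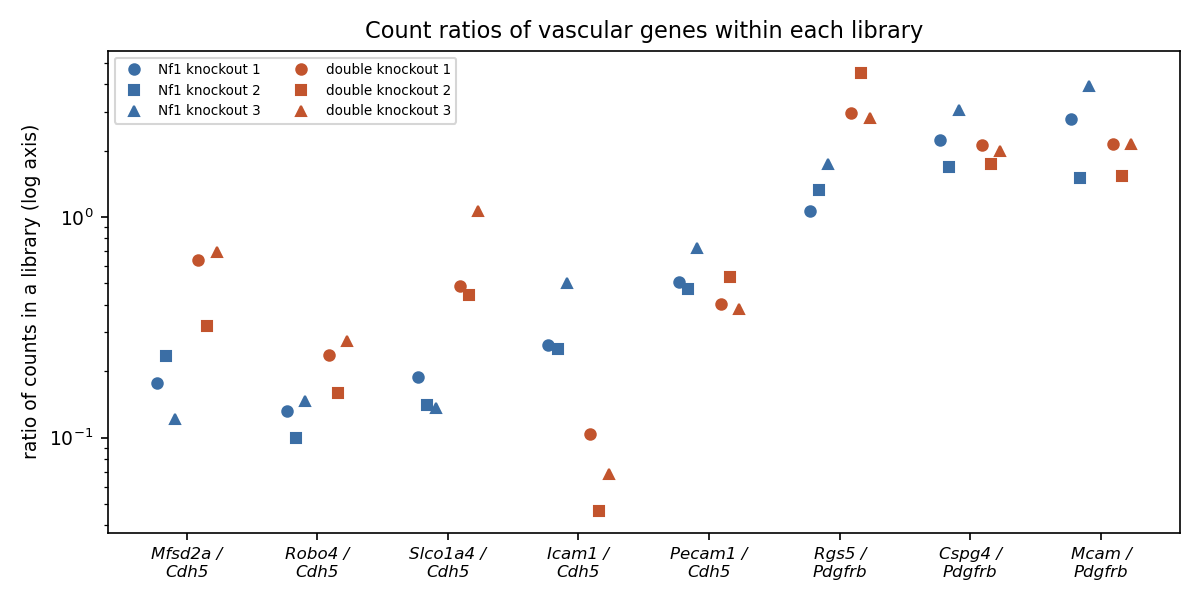
Ratio of the counts of 2 genes within each library, on a log axis, blue for Nf1 knockout and red for double knockout. The groups were apart for Mfsd2a, Robo4, Slco1a4 and Icam1 against Cdh5 and for Rgs5 against Pdgfrb, and overlapped for Pecam1, Cspg4 and Mcam.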

How the data were processed

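Bulk RNA-seq of 6 libraries was used. According to the paper's methods and the labels, the authors amplified RNA (NuGEN Ovation), prepared Nextera XT libraries, aligned paired-end reads to mm10 with TopHat and deposited raw counts of reads per gene from featureCounts; annotation, strand and multimapping settings are not given in the sources used here, so overlapping genes cannot be fully told apart. Counts were tested with limma-voom (limma 3.58.1, edgeR 4.0.16, R 4.3.3) after TMM scaling and filterByExpr (minimum count 10, total 15), with Benjamini-Hochberg adjustment over all genes; a prior count of 0.5 entered log2 CPM. The steps were tested on simulated data. Intervals are 95%. Every member is described; from other lists, the rule names at most 3 called genes with the largest change, and genes named beyond it are marked as such. The 33 genes, the lists and the tests were chosen with earlier results of these data known. Alternatives were edgeR, DESeq2 1.42.0, other scalings, filters and weights, and leaving out libraries. Replicate numbers follow accession order. Exon lengths and positions came from GENCODE M21.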

Additional observations from a re-analysis of the deposited data

How the results depend on the processing

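The count of genes changed at an adjusted p below 0.05 and more than 2-fold, 2096, ranged from 362 to 2285 when single libraries were left out, with 362 without Nf1 knockout library 1, 1033 without Nf1 knockout library 3 and 1018 without double knockout library 2. The 2 endothelial genes called became 5 in DESeq2 (Cldn5, Flt1 and Sox17 added), which called 29.2% of all genes against 19.3% in limma-voom. They became 6 with sample quality weights (Flt1, Tek, Sox17 and Egfl7 added), which called 25%, and 1 when scaled by library size only, which called 19.2%. Without single libraries they became 0 to 4, in fits that called 2.39% to 18.9% of all genes. The 3 mural genes called became 0 to 3 without single libraries. They were 0 without Nf1 knockout library 1 or 3 or double knockout library 2, where 2.39%, 7.54% and 7.45% of all genes were called. The endothelial and mural medians stayed at 0.34 to 0.72 and at -0.54 to -0.28 without single libraries. With Mcam counted as endothelial they were 0.44 and -0.31. Some members that were not called changed sign. Scaled by library size only, Cdh5 was at -0.06 and Sox18 at -0.07, and with every gene above a count of 0 Sox18 was at -0.00. Nos3 was at 0.12 in edgeR and 0.11 in DESeq2. With sample quality weights Nos3, Emcn and Tagln were at 0.57, 0.15 and 0.12. Without both muscle libraries Sox7, Sox18, Nos3 and Emcn were at -0.64, -0.04, 0.24 and 0.16. Without single libraries the ranges were -0.66 to 0.01 for Pecam1, -0.14 to 0.27 for Cdh5, -0.57 to 0.06 for Eng, -0.34 to 0.91 for Sox7, -0.08 to 0.12 for Sox18, -0.37 to 0.59 for Nos3, -0.26 to 0.38 for Emcn, -0.10 to 1.07 for Abcc9, -0.54 to 0.17 for Myh11 and -0.18 to 0.09 for Tagln. The cause of these shifts was not tested. Counts were lowest for Cldn5, at 6 to 29 reads a library. No paired analysis was possible because the labels give the groups no shared replicate numbers.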
